A study of Marchantia polymorpha with 9 samples.

Results

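The genes described here were lowered in both MpBHLH12 overexpression lines of the liverwort Marchantia polymorpha and still gave transcripts there. They were chosen by the deposited averages themselves. A gene is a member when log2 of (FPKM + 1) in the line over (FPKM + 1) in Tak-1 was -1 or lower in both lines and FPKM was 1 or more in at least 1 line. FPKM counts sequenced fragments per length of the gene and per size of the library. The rule took 165 of the 19287 genes in the table, which is 1.24% of the 13324 genes that reached 1 FPKM in some group. With a pseudocount of 5 FPKM in place of 1 FPKM, the rule took 93 genes. These could only be among the 165, since a larger pseudocount shrinks each decrease.

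MpBHLH12ox#2 and MpBHLH12ox#3 are 2 independent transformants of the male wild strain Tak-1 that carry a Citrine:MpBHLH12 fusion under the constitutive 35S promoter, so the protein is made in cells that may not normally hold it. Tak-1 without the transgene was the reference. RNA came from pooled pieces of 3-week-old thalli on 1/2 Gamborg's B5 agar, with 3 replicates in each of the 3 groups by the sample labels, which call the gene MpGL3. Only 1 average per group, the authors' mean, was held, so no value below has an SD and no difference has a test.

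MpBHLH12 belongs to the basic helix-loop-helix (bHLH) transcription factors, which bind DNA as dimers. In flowering plants its relatives of subgroup IIIf act with MYB partners on flavonoid pigment genes and on the fate of epidermal cells. In M. polymorpha, phenylpropanoid metabolism gives rise to flavonoids, to the red wall pigment riccionidin and to precursors of phenolic compounds.

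The overexpressed gene, MpBHLH12 (Mapoly0031s0161), had 547.6 FPKM in MpBHLH12ox#2 and 474.6 FPKM in MpBHLH12ox#3, against 20.3 FPKM in Tak-1. The table does not separate transcripts of the transgene from those of the native gene. The median log2 change over the 13324 genes was 0.0020 in MpBHLH12ox#2 and 0.0038 in MpBHLH12ox#3, on FPKM that are already scaled to the size of each library. Genes lowered by 1 or more in both lines numbered 202 (1.52%), and genes raised by as much numbered 208 (1.56%).

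The levels of the members follow in part from the rule, since a gene needs FPKM well above 1 in Tak-1 to be lowered by this much and keep 1 FPKM in a line. Their median was 6.61 FPKM in MpBHLH12ox#2 and 7.09 FPKM in MpBHLH12ox#3, against 28.5 FPKM in Tak-1, where all genes of 1 FPKM or more had a median of 13.7 FPKM. The lowest member had 3.86 FPKM in Tak-1 and the highest had 886.0 FPKM. The members summed to 0.553% of all FPKM in MpBHLH12ox#2 and 0.556% in MpBHLH12ox#3, against 1.89% in Tak-1. Because RNA came from pieces of thallus, fewer cells of a type and less RNA per cell cannot be told apart in any of these values.

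By the rule every member was lower in both lines, and the depth of the decrease is given as a description of genes selected on it. The median of the mean log2 change was -1.49, with quartiles of -1.88 and -1.27 and a range of -4.02 to -1.01. Most decreases were partial, which the rule favours, since it left out lowered genes under 1 FPKM in both lines. The median member kept 30.2% of its Tak-1 FPKM in MpBHLH12ox#2 and 30.5% in MpBHLH12ox#3. A mean change of -2 or lower was found in 36 members and one of -3 or lower in 14. In 9 members both lines held 10 percent of the Tak-1 level or less, whereas 67 members kept 10 FPKM or more in both lines and 7 kept 100 FPKM or more.

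The deepest decrease was that of Mapoly0024s0073, with 24.6 FPKM in MpBHLH12ox#2 and 28.1 FPKM in MpBHLH12ox#3, against 443.8 FPKM in Tak-1. Its level in the lines, although 5.55% and 6.34% of the wild type, was still about as high as that of the median member in Tak-1. Mapoly0088s0052 had 11.6 FPKM in MpBHLH12ox#2 and 8.15 FPKM in MpBHLH12ox#3, against 123.3 FPKM in Tak-1. Mapoly0033s0103 had 20.3 FPKM in MpBHLH12ox#2 and 16.2 FPKM in MpBHLH12ox#3, against 191.7 FPKM in Tak-1. The sources used here give no annotation for these 3 genes. The remaining 7 of the 10 deepest members are described below with their neighbours or annotation. The order of the deepest members depends on the pseudocount. With 0.1 FPKM in place of 1 FPKM, Mapoly0047s0001 and Mapoly0137s0004 had mean changes of -4.55 and -4.29, against -4.07 for Mapoly0024s0073.

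**Figure D1:**
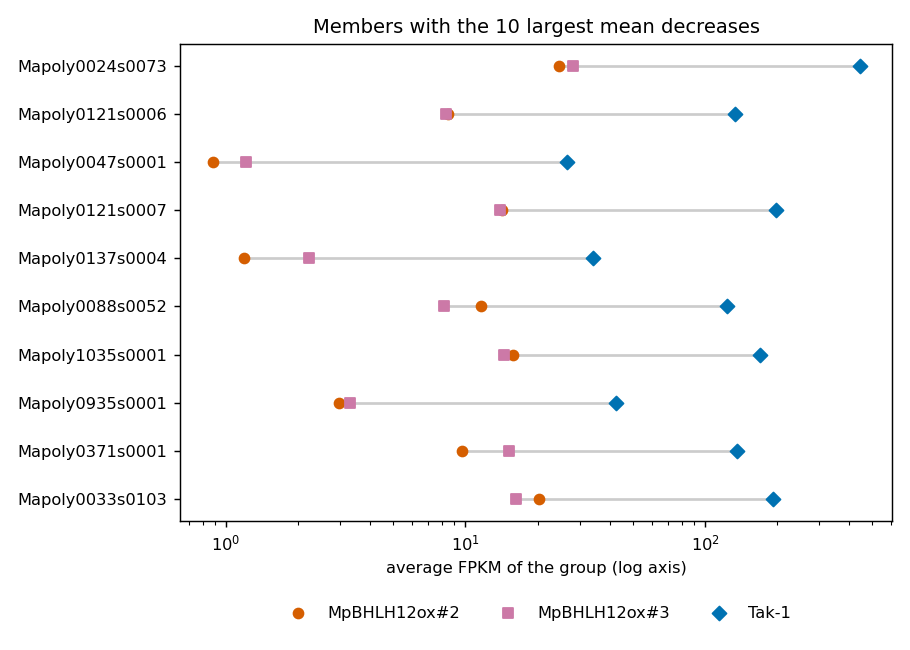
Average FPKM (log axis) of the 10 members with the lowest mean log2 change, in MpBHLH12ox#2 (circles), MpBHLH12ox#3 (squares) and Tak-1 (diamonds). In each gene the points of both lines lie far left of Tak-1, as in Mapoly0024s0073 with 24.6 and 28.1 FPKM in the lines and 443.8 FPKM in Tak-1.

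Of the 10 deepest members, 3 are the first gene of very short scaffolds, pieces of the genome assembly with 5 genes or fewer. Mapoly1035s0001 had 15.8 FPKM in MpBHLH12ox#2 and 14.4 FPKM in MpBHLH12ox#3, against 170.4 FPKM in Tak-1. Mapoly0935s0001 had 2.97 FPKM in MpBHLH12ox#2 and 3.29 FPKM in MpBHLH12ox#3, against 42.5 FPKM in Tak-1. Mapoly0371s0001 had 9.67 FPKM in MpBHLH12ox#2 and 15.2 FPKM in MpBHLH12ox#3, against 135.7 FPKM in Tak-1. Such scaffolds held 9 members among their 368 genes of 1 FPKM or more (2.45%, against 1.24% of all such genes), and 5 of the 9 had a mean change of -2 or lower, as had 36 of all 165 members. Where a short scaffold repeats a gene found elsewhere in the assembly, reads may be split between the copies, which was not tested.

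At the high end of the wild-type levels stood Mapoly0137s0006, with 418.4 FPKM in MpBHLH12ox#2 and 347.3 FPKM in MpBHLH12ox#3, against 886.0 FPKM in Tak-1. Mapoly0199s0013 was nearly as abundant in Tak-1, with 213.4 FPKM in MpBHLH12ox#2 and 256.1 FPKM in MpBHLH12ox#3, against 884.2 FPKM in Tak-1. These were the genes of rank 116 and 117 in Tak-1. Mapoly0134s0029 had 137.2 FPKM in MpBHLH12ox#2 and 137.7 FPKM in MpBHLH12ox#3, against 334.4 FPKM in Tak-1, the same level in both lines to within 1 FPKM. All 3 stayed among the abundant transcripts of the lines.

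Sorted by their level in Tak-1, lowered genes took about the same share of all genes below 100 FPKM and a larger one above it. Among genes of 100 FPKM or more in Tak-1, 30 of 928 (3.23%) were members, with a median mean change of -2.0. Between 20 and 100 FPKM it was 63 of 4057 (1.55%), with a median of -1.53, and between 5 and 20 FPKM 65 of 5259 (1.24%), with a median of -1.43. Between 1 and 5 FPKM it was 7 of 2677 (0.261%), with a median of -1.34. The minimum of 1 FPKM in a line sets this low share of members, since all lowered genes, those under 1 FPKM in both lines included, made up 1.46% of the genes between 1 and 5 FPKM, 1.33% between 5 and 20 FPKM and 1.55% between 20 and 100 FPKM. A mean change of -2 or lower was found in 15 of the 30 most abundant members and in 8 of the 65 between 5 and 20 FPKM. The minimum of 1 FPKM in a line also limits how deep the change of a low member can be. It therefore sets in part the medians and counts at the lower levels. The pseudocount also makes the change of low genes look smaller than the ratio of their FPKM.

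**Figure D2:**
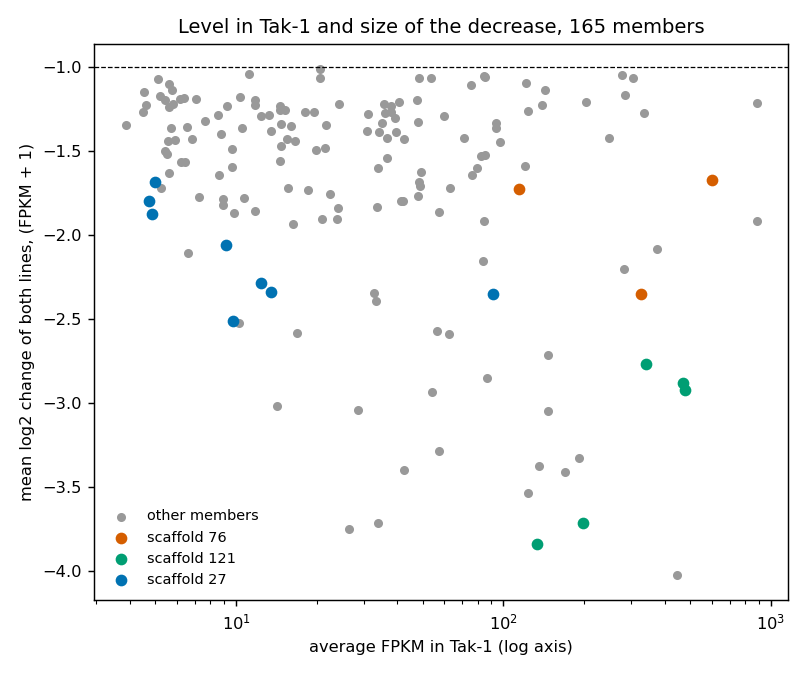
Mean log2 change of both lines, on FPKM + 1, against the average FPKM in Tak-1 (log axis), 1 point per member, with the dashed line at the limit of -1. Among members of scaffolds with runs, the 5 genes of scaffold 121 (-3.84 to -2.77) lie at the high and deep end, and those of scaffold 27 at lower levels. At -2 or lower lie 15 of the 30 members of 100 FPKM or more and 8 of the 65 between 5 and 20 FPKM. The FPKM minimum of the rule limits the depth at low levels.

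The 37 lowered genes left out by the FPKM minimum came from lower levels. Their medians were 0.270 FPKM in MpBHLH12ox#2 and 0.464 FPKM in MpBHLH12ox#3, against 3.18 FPKM in Tak-1. Their median mean change of -1.39 was close to that of the members, although they kept a median of 9.35% of the Tak-1 FPKM in MpBHLH12ox#2 and 14.3% in MpBHLH12ox#3. The rule itself drew this boundary. Just inside it, Mapoly0008s0109 had 1.01 FPKM in MpBHLH12ox#2 and 0.825 FPKM in MpBHLH12ox#3, against 3.86 FPKM in Tak-1, and Mapoly0003s0264 had 1.08 FPKM in MpBHLH12ox#2 and 0.724 FPKM in MpBHLH12ox#3, against 5.24 FPKM in Tak-1. Just outside, Mapoly0488s0001 had 0.966 FPKM in MpBHLH12ox#2 and 0.509 FPKM in MpBHLH12ox#3, against 3.57 FPKM in Tak-1. At the limit on the change, the members Mapoly0022s0134, Mapoly0027s0172 and Mapoly0001s0298 had log2 changes of -1.001, -1.003 and -1.010 in their weaker line. The genes Mapoly0004s0027, Mapoly1294s0001 and Mapoly3387s0001, with -0.9999, -0.9984 and -0.9969, lay just outside.

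Annotation from the study was held for the first 1933 genes of the table, on scaffolds 1 to 6. In them 15 of the 1469 genes of 1 FPKM or more were lowered in both lines (1.02%), of which 13 were members and 9 carried an annotation. The 9 belonged to different families, with the auxin responsive proteins the one family that held 2. Kinases and leucine-rich proteins (88 genes of 1 FPKM or more), transporters (50), ribosomal proteins (36), glycosyltransferases (18) and cytochromes P450 (9) held no lowered gene. At a share of 1.02%, sets of these sizes can hold none without differing from the other genes. The keyword for transcription factors, zinc finger proteins included, found 60 such genes, of which 1 was lowered and 0 were raised. Of the 1469 genes of this part, 15 were lowered and 12 raised, so these counts set the factors apart in neither direction.

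The lowered transcription factor was Mapoly0001s0298, of the TCP family, plant-specific proteins that regulate growth and branching in flowering plants. It had 4.81 FPKM in MpBHLH12ox#2 and 5.07 FPKM in MpBHLH12ox#3, against 11.2 FPKM in Tak-1, and was among the members nearest to the limit. The study also designed qRT-PCR primers for this gene. Of its other 5 targets named by an identifier, MpBHLH12 itself among them, Mapoly0046s0038 was the one further member, with 1.99 FPKM in MpBHLH12ox#2 and 2.18 FPKM in MpBHLH12ox#3, against 5.61 FPKM in Tak-1. None of the 12 M. polymorpha bHLH genes of the study's phylogeny was a member. Its gene Mapoly0028s0058 was lowered, but to 0.782 FPKM in MpBHLH12ox#2 and 0.752 FPKM in MpBHLH12ox#3, against 4.44 FPKM in Tak-1.

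Mapoly0003s0277 is annotated as shikimate O-hydroxycinnamoyltransferase, the enzyme that joins p-coumaroyl-CoA to shikimate on the way to caffeoyl compounds. It had 44.4 FPKM in MpBHLH12ox#2 and 58.8 FPKM in MpBHLH12ox#3, against 123.9 FPKM in Tak-1, log2 changes of -1.46 and -1.06. Genes for the steps around it were not lowered. The 3 cinnamate 4-hydroxylase genes, which act upstream, had mean changes of 0.40 to 0.77, and the 3 genes for 4-coumaroyl-CoA ligase had 0.01 to 0.44. The gene for coumarate 3-hydroxylase, Mapoly0037s0087, which acts on the product in flowering plants, had 39.8 FPKM in MpBHLH12ox#2 and 47.6 FPKM in MpBHLH12ox#3, against 48.5 FPKM in Tak-1. Of the 5 genes annotated with the same transferase family, 1 was lowered and 1 was raised, namely Mapoly0001s0569 with 8.07 FPKM in MpBHLH12ox#2 and 7.49 FPKM in MpBHLH12ox#3, against 2.37 FPKM in Tak-1.

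Of the 82 shikimate and phenylpropanoid genes listed by the study, 10 were raised in both lines and 1 was a member, while the median mean change of the 74 with 1 FPKM or more was 0.27. Over all genes of 1 FPKM or more, 1.56% were raised in both lines and 1.24% were members. The 1 member among the 74 is thus near the share over all genes, while the 10 raised genes lie above it. The member was Mapoly0047s0001, annotated as a UDP-glucosyl transferase 73C, an enzyme type that attaches sugars to small molecules. It had 0.880 FPKM in MpBHLH12ox#2 and 1.22 FPKM in MpBHLH12ox#3, against 26.6 FPKM in Tak-1, or 3.31% and 4.59% of the wild type. By mean log2 change on FPKM + 1 it was the third deepest member, a rank that depends on the pseudocount. The 7 other genes of this kind in the list did not share the decrease. Mapoly0067s0104 and Mapoly0099s0001 had mean changes of 1.28 and 1.25, and Mapoly0055s0001, the lowest of the 7, had -0.53. The next gene on the same scaffold, Mapoly0047s0002, had 27.6 FPKM in MpBHLH12ox#2 and 36.3 FPKM in MpBHLH12ox#3, against 20.5 FPKM in Tak-1.

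Both auxin responsive members belong to the protein family of small auxin-induced transcripts, which auxin induces rapidly in flowering plants, and lie in a group of 6 such genes on scaffold 2. Mapoly0002s0081 had 1.47 FPKM in MpBHLH12ox#2 and 1.41 FPKM in MpBHLH12ox#3, against 6.21 FPKM in Tak-1. Mapoly0002s0085 had 3.99 FPKM in MpBHLH12ox#2 and 2.80 FPKM in MpBHLH12ox#3, against 9.23 FPKM in Tak-1. The other 4 genes of the group, Mapoly0002s0080, Mapoly0002s0082, Mapoly0002s0083 and Mapoly0002s0086, had mean changes between -0.42 and 0.33. Reads may be shared between neighbouring genes of 1 family, which was not tested.

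The other annotated members were enzymes, a copper protein and proteins of unknown function. Mapoly0002s0135, a dienelactone hydrolase family protein, had 5.45 FPKM in MpBHLH12ox#2 and 6.47 FPKM in MpBHLH12ox#3, against 22.4 FPKM in Tak-1. Mapoly0002s0292, an oxidoreductase with an FAD binding and a berberine-like domain, had 1.48 FPKM in MpBHLH12ox#2 and 1.74 FPKM in MpBHLH12ox#3, against 5.70 FPKM in Tak-1. The copper protein Mapoly0006s0081, with a plastocyanin-like domain, was lowered least of these. It had 22.0 FPKM in MpBHLH12ox#2 and 23.0 FPKM in MpBHLH12ox#3, against 48.4 FPKM in Tak-1. The other 3 expressed genes annotated with this domain on scaffolds 1 to 6 had mean changes of 0.05 to 0.67. Mapoly0001s0368 and Mapoly0004s0239, which carry domains of unknown function, had mean changes of -1.64 and -1.25.

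**Figure D3:**
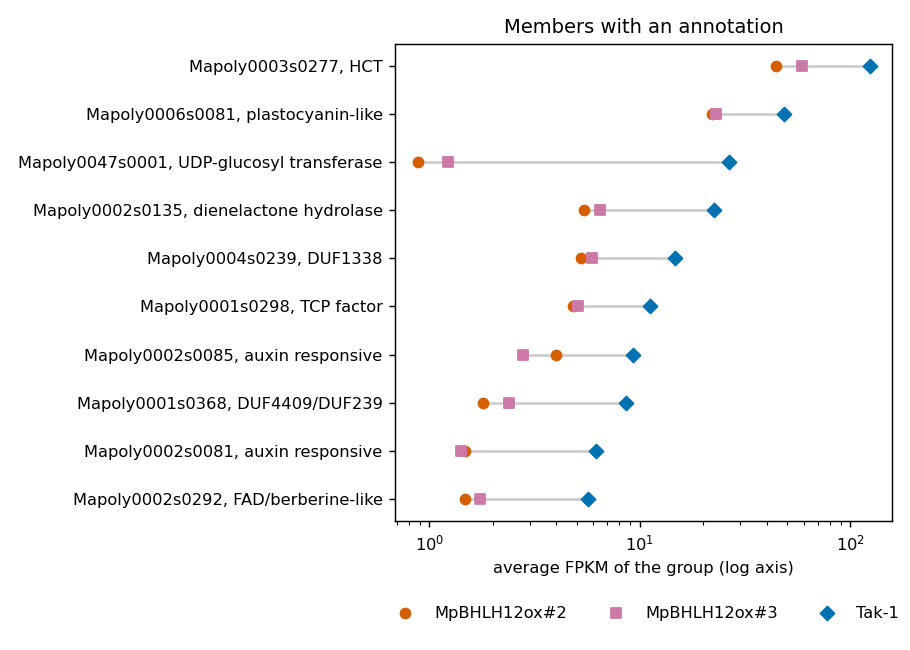
Average FPKM (log axis) of the 10 members with an annotation in MpBHLH12ox#2 (circles), MpBHLH12ox#3 (squares) and Tak-1 (diamonds). The hydroxycinnamoyltransferase gene (HCT, Mapoly0003s0277) is the most abundant with 123.9 FPKM in Tak-1, and the UDP-glucosyl transferase gene shows the widest gap, 0.880 and 1.22 FPKM in the lines and 26.6 FPKM in Tak-1.

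Some members lay side by side. The gene numbers, which the rule did not use, follow the order along a scaffold. The members lay on 102 of 763 scaffolds, 67 of them as the sole member there, and 31 members formed 11 runs of consecutive numbers. Within 3 numbers of another member lay 46. The same counts were not made for other sets of genes. Whether members lie side by side more often than other genes do was therefore not tested. Of the 264 adjacent genes that were no members, 170 had 1 FPKM or more, and their median mean change was -0.05, against 0.01 over all genes of that level, with a lower quartile of -0.39, against -0.15. Of these 170, 118 (69.4%) differed by less than 0.5 from Tak-1 in both lines, against 80.0% of all genes of that level. Lowered by 1 or more in both lines were 3 (1.76%), against 1.52% of all genes of that level. Since members were left out, these could only be lowered genes under 1 FPKM in both lines. The count therefore does not show how far decreases reach beyond the members.

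The run on scaffold 121 held 5 genes and was the most abundant. Mapoly0121s0006 had 8.48 FPKM in MpBHLH12ox#2 and 8.32 FPKM in MpBHLH12ox#3, against 133.5 FPKM in Tak-1. Mapoly0121s0007 had 14.2 FPKM in MpBHLH12ox#2 and 13.99 FPKM in MpBHLH12ox#3, against 197.8 FPKM in Tak-1. The next 3 were more abundant and less deeply lowered. Mapoly0121s0008 had 60.1 FPKM in MpBHLH12ox#2 and 63.5 FPKM in MpBHLH12ox#3, against 475.1 FPKM in Tak-1. Mapoly0121s0009 had 62.8 FPKM in MpBHLH12ox#2 and 62.3 FPKM in MpBHLH12ox#3, against 467.3 FPKM in Tak-1. Mapoly0121s0010 had 47.2 FPKM in MpBHLH12ox#2 and 51.5 FPKM in MpBHLH12ox#3, against 341.9 FPKM in Tak-1. The run had sharp borders, since Mapoly0121s0005 before it had a mean change of 0.35 and Mapoly0121s0011 after it had 1.17. Its 5 genes summed to 12.8% of the FPKM of all members in Tak-1. The near-equal levels of Mapoly0121s0008 and Mapoly0121s0009 may include reads shared between copies, which was not tested.

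The run on scaffold 27 was the longest. It took in Mapoly0027s0165 to Mapoly0027s0170, and after Mapoly0027s0171, which was lowered but under 1 FPKM in both lines, came the member Mapoly0027s0172. The 6 genes of the run lay between 0.209 and 1.38 FPKM in MpBHLH12ox#2 and between 1.06 and 3.03 FPKM in MpBHLH12ox#3, against 4.71 to 13.5 FPKM in Tak-1. Every one was lower in MpBHLH12ox#2 than in MpBHLH12ox#3. This was fixed in advance for those under 1 FPKM in MpBHLH12ox#2, which met the FPKM minimum through MpBHLH12ox#3 alone. Mapoly0027s0169 and Mapoly0027s0170 were above 1 FPKM in both lines. The lowered stretch did not start at the run. Mapoly0027s0164 before it had 0.0419 FPKM in MpBHLH12ox#2 and 0.490 FPKM in MpBHLH12ox#3, against 1.56 FPKM in Tak-1 (2.69% and 31.4%). Mapoly0027s0162 and Mapoly0027s0163, under 1 FPKM in every group, had mean changes of -0.68 and -0.38. The former kept 3.37% of its Tak-1 FPKM in MpBHLH12ox#2 and 10.6% in MpBHLH12ox#3, and the latter 57.7% and 36.8%. At such levels the pseudocount makes the log2 change look smaller than the ratio of FPKM. The gene after Mapoly0027s0172, Mapoly0027s0173, had 7.66 FPKM in MpBHLH12ox#2 and 5.75 FPKM in MpBHLH12ox#3, against 5.07 FPKM in Tak-1.

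Runs of 3 genes on scaffolds 76 and 91 showed the opposite order of the lines. Mapoly0076s0057 had 75.9 FPKM in MpBHLH12ox#2 and 52.4 FPKM in MpBHLH12ox#3, against 325.6 FPKM in Tak-1. Mapoly0076s0058 had 212.3 FPKM in MpBHLH12ox#2 and 166.3 FPKM in MpBHLH12ox#3, against 601.4 FPKM in Tak-1. Mapoly0076s0059 and the genes Mapoly0091s0079 to Mapoly0091s0081 were likewise lower in MpBHLH12ox#3, with mean changes of -1.72 and of -2.16 to -1.91. The genes bordering both runs with 1 FPKM or more, Mapoly0076s0056, Mapoly0076s0060 and Mapoly0091s0082, had mean changes of -0.06, 0.14 and -0.20.

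The other 7 runs were pairs. Mapoly0032s0076 had 88.3 FPKM in MpBHLH12ox#2 and 87.3 FPKM in MpBHLH12ox#3, against 375.1 FPKM in Tak-1, and its neighbour Mapoly0032s0077 had a mean change of -1.55. Mapoly1171s0001 and Mapoly1171s0002, on a short scaffold, had mean changes of -3.05 and -2.94, and Mapoly0008s0264 and Mapoly0008s0265 had -1.64 and -1.86. Mapoly0066s0067 and Mapoly0066s0068 were alike in each group, with 4.10 and 4.41 FPKM in MpBHLH12ox#2, 5.72 and 6.11 FPKM in MpBHLH12ox#3, and 13.3 and 14.7 FPKM in Tak-1. The pairs Mapoly0151s0028 with Mapoly0151s0029 and Mapoly0965s0001 with Mapoly0965s0002 had mean changes of -1.20, -1.35, -1.43 and -1.43. Mapoly0203s0007 and Mapoly0203s0008 had -2.52 and -1.23.

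**Figure D4:**
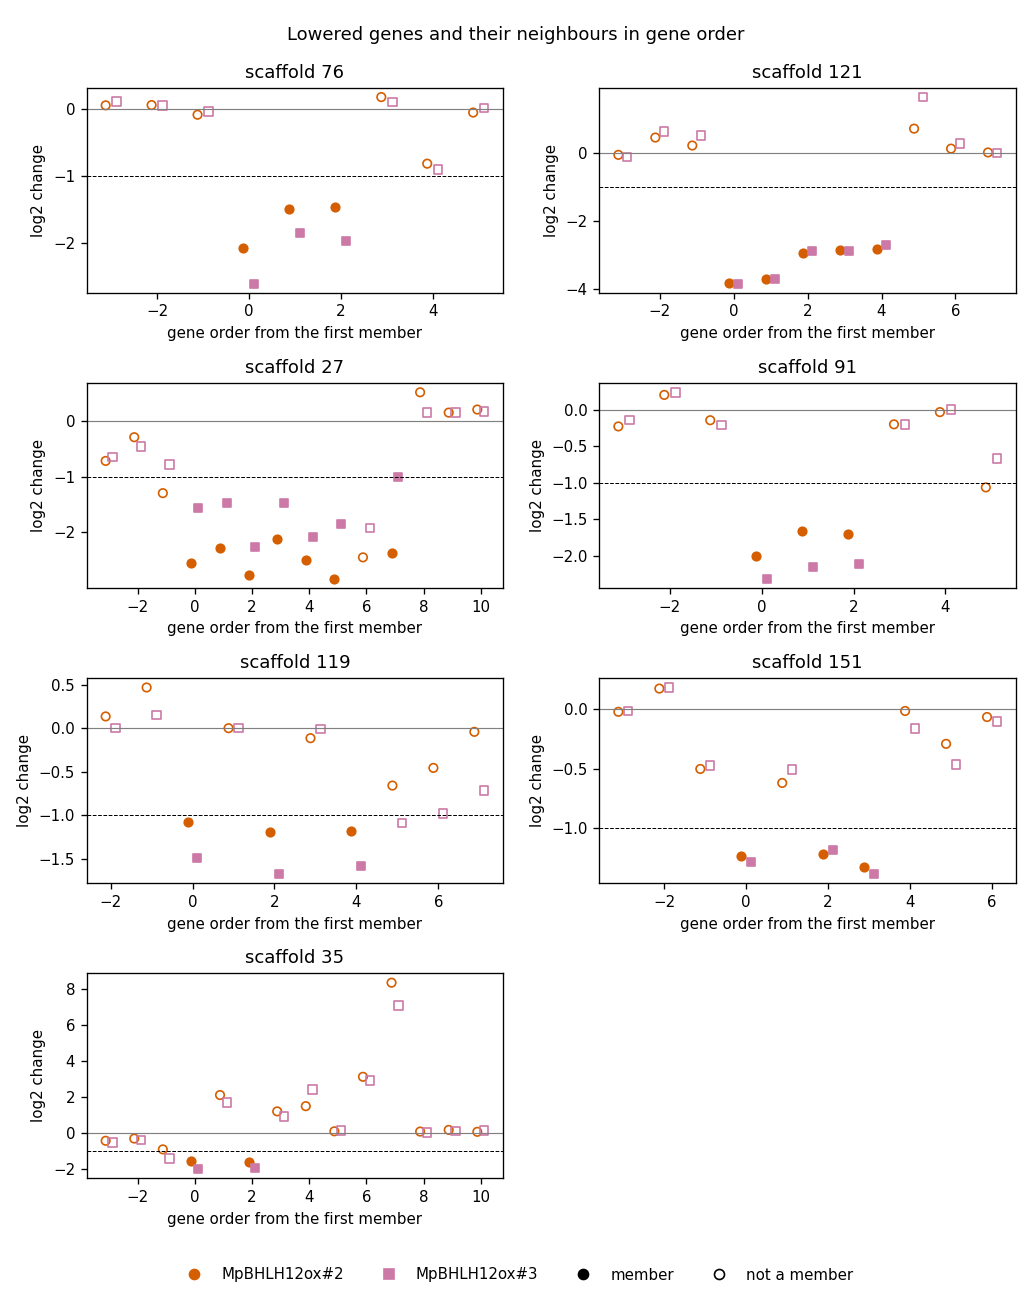
Log2 change against Tak-1 in MpBHLH12ox#2 (circles) and MpBHLH12ox#3 (squares) along the gene order of 7 scaffolds, counted from the first member shown, with filled symbols for members and a dashed line at -1. The run on scaffold 121 ends sharply on both sides, the squares lie above the circles in the members of scaffold 27 and below them on scaffolds 76, 91 and 119, and raised genes stand between and after the members of scaffold 35.

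Lowered and raised genes could stand next to each other. An adjacent gene raised by 1 or more in both lines was found beside 7 members, and 5 raised genes made up these neighbours. They were 5 of the 170 adjacent genes of 1 FPKM or more that were no members. Of all 13324 genes of that level, 208 (1.56%) were raised, and whether the 2 shares differ was not tested. Beside Mapoly0203s0008 stood Mapoly0203s0009, with 84.8 FPKM in MpBHLH12ox#2 and 55.7 FPKM in MpBHLH12ox#3, against 10.5 FPKM in Tak-1. Mapoly0137s0004, among the 10 deepest members, had 1.19 FPKM in MpBHLH12ox#2 and 2.23 FPKM in MpBHLH12ox#3, against 33.9 FPKM in Tak-1. Between it and the abundant member Mapoly0137s0006 stood Mapoly0137s0005, with 13.9 FPKM in MpBHLH12ox#2 and 11.3 FPKM in MpBHLH12ox#3, against 3.24 FPKM in Tak-1. Directions alternated over these 3 genes.

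A stretch of scaffold 35 showed the same alternation and was singled out after its values were seen. The members Mapoly0035s0086 and Mapoly0035s0088 had 13.4 and 12.8 FPKM in MpBHLH12ox#2, 9.65 and 9.77 FPKM in MpBHLH12ox#3, and 42.1 and 41.4 FPKM in Tak-1. The gene between them, Mapoly0035s0087, had 6.43 FPKM in MpBHLH12ox#2 and 4.54 FPKM in MpBHLH12ox#3, against 0.727 FPKM in Tak-1. Further along, Mapoly0035s0093 had 364.4 FPKM in MpBHLH12ox#2 and 151.3 FPKM in MpBHLH12ox#3, against 0.112 FPKM in Tak-1, the highest mean change of all genes with 7.73. Also chosen after its values were seen, Mapoly0037s0085 had 16.1 FPKM in MpBHLH12ox#2 and 28.6 FPKM in MpBHLH12ox#3, against 147.0 FPKM in Tak-1. It lies 2 numbers from the coumarate 3-hydroxylase gene, and the gene between them, Mapoly0037s0086, had a mean change of -0.01.

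The rule set each line against Tak-1 but not the lines against each other. For each member the difference of MpBHLH12ox#3 minus MpBHLH12ox#2 on the log2 scale had a median of 0.08 and quartiles of -0.08 and 0.24, against a median of 0.01 over all genes of 1 FPKM or more. In 95 of the 165 members the lines were less than 0.25 apart. This is a smaller share than over all genes of 1 FPKM or more, where 11507 of 13324 were that close. The lines were 0.5 or more apart in 22 members (13.3%), against 3.53% of all genes of 1 FPKM or more, and 6 of the 22 lie on scaffold 27. Of the 22, 16 (72.7%) were higher in MpBHLH12ox#3, against 66.2% of all genes that far apart. With a pseudocount of 5 FPKM, tried after seeing the data, 7 of the members were that far apart. The members had to be lowered in both lines, and the size of a change and the gap between the lines were not separated here. The FPKM minimum also fixed the direction of some gaps. To pass it, the 10 members under 1 FPKM in MpBHLH12ox#2 had to be higher in MpBHLH12ox#3. The reverse held for 2 members under 1 FPKM in MpBHLH12ox#3.

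All 8 members of scaffold 27 were higher in MpBHLH12ox#3, with a median difference of 0.89. For those under 1 FPKM in MpBHLH12ox#2, such as Mapoly0027s0172, the FPKM minimum fixed this direction, since they passed it only through MpBHLH12ox#3. The widest gap was that of Mapoly0027s0172, with 0.156 FPKM in MpBHLH12ox#2 and 1.98 FPKM in MpBHLH12ox#3, against 4.97 FPKM in Tak-1. Mapoly0027s0052, which lies apart from the run, had 11.6 FPKM in MpBHLH12ox#2 and 25.1 FPKM in MpBHLH12ox#3, against 91.7 FPKM in Tak-1. These were the 2 members whose lines were 1 or more apart. Mapoly0027s0170, Mapoly0027s0165 and Mapoly0009s0117 followed with differences of 0.98, 0.99 and 0.97.

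In the other direction the widest gap was that of Mapoly0009s0218, with 8.64 FPKM in MpBHLH12ox#2 and 4.12 FPKM in MpBHLH12ox#3, against 24.2 FPKM in Tak-1, a difference of -0.91. Mapoly0059s0011 had 18.2 FPKM in MpBHLH12ox#2 and 11.0 FPKM in MpBHLH12ox#3, against 48.6 FPKM in Tak-1. Mapoly0965s0001, Mapoly0096s0075 and Mapoly0076s0057 had differences of -0.59, -0.59 and -0.53. Neighbours shared the direction of the gap in 7 of the 11 runs. Of all 165 members, 100 (60.6%) were higher in MpBHLH12ox#3, against 53.8% of all genes of 1 FPKM or more. Without scaffold 27 the share of the members was 58.6%. Members thus often share a direction without being neighbours. How often members that are not neighbours do so was not counted. The members Mapoly0119s0003, Mapoly0119s0005 and Mapoly0119s0007, which alternate with genes under 1 FPKM and were chosen after their values were seen, had differences of -0.41, -0.48 and -0.40. With 1 average per line, a gap between the lines cannot be told apart from the spread between replicates.

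**Figure D5:**
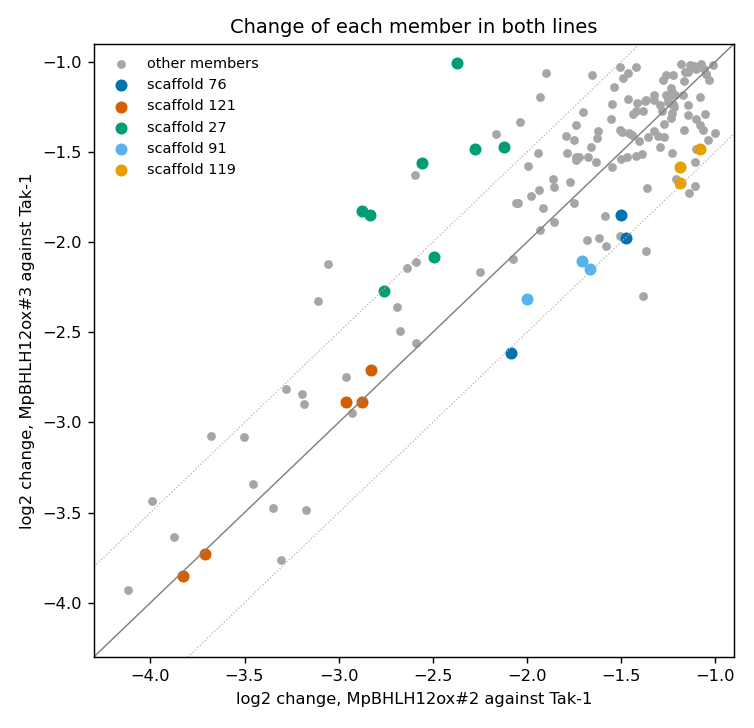
Log2 change against Tak-1 in MpBHLH12ox#2 (horizontal) and MpBHLH12ox#3 (vertical), 1 point per member, with the line of equal change and dotted lines 0.5 to each side. Both axes share the Tak-1 average, the 8 members of scaffold 27 lie above the line of equal change, and those of scaffolds 76, 91 and 119 lie below it.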

How the data were processed

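For each of 19287 genes the authors deposited the FPKM of a group as 1 average. Reads were mapped to the JGI 3.1 genome with Bowtie2 and fragments determined with HTSeq. The submitters' processing notes also name Cuffdiff 2.2.1, and no source used here says which program made the FPKM. Replicate values and depth were not analysed here. The study's test on counts could not be run on averages, so differences of log2(FPKM + 1) between a line and Tak-1 were compared by size.

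Members and lists were chosen with earlier results of these data known. The text names the 10 deepest members, the 10 most abundant in Tak-1, annotated or listed members, the 5 widest line differences in each direction, members in runs and those nearest the limits (61 genes, besides those said to be chosen later). The study's annotation was held for scaffolds 1 to 6 up to gene 94 of scaffold 6. None of the identifiers matched the reference table of MpTak2_v7.1 (0 matches). The fold changes and test values in the study's own tables were not used. Python 3.11.15, numpy 2.4.6, pandas 2.3.3 and matplotlib 3.10.9 were used, and the rule was tested on simulated data. Alternatives were pseudocounts of 0.1 and 5, rescaling, other sizes and other FPKM minimums.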

Additional observations from a re-analysis of the deposited data

How the results depend on the processing

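No paired analysis was possible because no replicate values were held, only group averages, and leaving out a replicate could not be run for the same reason. The number of lowered, still expressed genes was 165. It was 93 with a pseudocount of 5, 250 with a size of 0.8 and 63 with a size of 1.5. With a pseudocount of 0.1, rescaling, 1 FPKM in both lines, no minimum, and the mean of the lines it lay between 153 and 209. The 93 and the 63 genes could only be members, since a larger pseudocount or size makes the rule stricter. The median mean change was -1.68 with a pseudocount of 0.1 and -1.13 with one of 5. It was -1.44 without scaffold 27 and -1.46 without scaffold 121, alternatives chosen after seeing the data. The median difference between the lines was 0.046 with a pseudocount of 5. The number of members 0.5 or more apart between the lines was 22, and it was 7 with a pseudocount of 5 and 16 without scaffold 27, both chosen after seeing the data. The direction of the 61 named genes was fixed in advance, since all are members and a pseudocount cannot change the sign of a difference. Rescaling shifted the changes by only 0.0020 in MpBHLH12ox#2 and 0.0038 in MpBHLH12ox#3. A pseudocount of 5 moved 45 of the 61 by more than the SD between the lines. A larger pseudocount shrinks each change by construction. For the alternatives without a scaffold the cause was not tested. Without replicate values or depth, the error of each average is unknown.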
